A study of Mus musculus with 6 samples.

Results

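The data describe 10 genes of the ERK pathway in the colon of mice given PCN or vehicle. Etv1, Etv4 and Etv5 encode the PEA3 transcription factors. Spry1, Spry2, Spry4, Spred1 and Spred2 encode Sprouty and Spred proteins, and Dusp4 and Dusp6 encode phosphatases. The 10 genes were taken by name from the 23282 genes of the table, as genes that ERK signalling is known to switch on, and the set was chosen by the measured rise of Etv4 between PCN and vehicle in these same libraries. Etv4 is therefore described here without a test, and the other 9 genes were tested in a fit over all genes. All 10 passed the filter on low counts that left 16586 genes for testing.

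The PCN group came from 8-week-old wild-type male C57BL/6J mice that received PCN at 40 mg/kg by intraperitoneal injection, in a mixture of DMSO and corn oil, 3 times at intervals of 8 h (3 libraries, replicates 4, 5 and 6). The control mice were of the same age, sex, strain and genotype and received vehicle (3 libraries, replicates 3, 5 and 6). Colon tissue was collected 8 h after the last injection, and its RNA was sequenced to learn which genes respond to PXR, the xenobiotic receptor that PCN, a synthetic steroid, activates in rodents. PCN given in this way reaches the whole animal, liver included. The tissue was not sorted, so a gene expressed in fewer cells and a gene with less RNA per cell cannot be told apart. The labels leave unstated whether 1 library stands for 1 mouse, and the p-values rest on the spread among libraries, which may be technical.

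Growth factors such as EGF and FGF bind receptor tyrosine kinases at the cell surface, and the signal passes through Ras, Raf and MEK to the kinase ERK. ERK signalling in turn switches on genes that carry the signal forward or damp it. The PEA3 factors are ETS transcription factors that act in growth and branching of epithelia. Sprouty and Spred proteins restrain the path from receptor to ERK, DUSP6 removes phosphate from ERK in the cytoplasm and DUSP4 does so in the nucleus. For this reason the RNA of these genes is often read as a record of recent ERK activity. In the intestine, EGF receptor signalling through ERK is needed for the division of crypt cells, and ETV1 is known as a factor of the interstitial cells of Cajal, the pacemaker cells of the gut muscle.

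Libraries held 21924026 to 25422856 counts and 20538 to 20963 detected genes. Their log2 CPM correlated with r of 0.973 to 0.984 within a group and 0.969 to 0.982 between groups. Of 17 lists of cell type and position markers, 16 had tested genes. The epithelial list was abundant in every library, with 7102 to 9157 CPM summed over its 7 genes after PCN and 7139 to 8231 CPM after vehicle. None of the 4 mast cell markers passed the filter on low counts, and the highest count of any of them was 13. Values are given as CPM (counts relative to library size after TMM scaling) for a gene across libraries, and as FPKM (which also allow for gene length) where genes are set against each other. Log2 fold changes, PCN over vehicle, and adjusted p-values are from edgeR's quasi-likelihood test with Benjamini-Hochberg adjustment over all genes tested, unless DESeq2 is named. Under edgeR 6 genes passed at an adjusted p under 0.05, 0.0362% of those tested. DESeq2 called 171 genes higher (1.03%) and 43 lower (0.259%).

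PCN treatment went with a higher level of Etv4 in all 3 libraries. Etv4 (ENSMUSG00000017724, chromosome 11 of GRCm38, 101769742 to 101785371, minus strand) encodes a PEA3 factor that is known to be raised in many colorectal tumours. It had 8.92, 10.4 and 7.75 CPM in PCN replicates 4, 5 and 6, against 2.36, 3.13 and 1.96 CPM in vehicle replicates 3, 5 and 6. The lowest PCN library thus lay above the highest vehicle library, and the groups did not overlap. The mean was 9.01 ± 1.31 CPM after PCN and 2.49 ± 0.595 CPM after vehicle (SD, n = 3 each). In log2 units PCN exceeded vehicle by 1.86 with a standard error of 0.25 and a 95% interval of 1.28 to 2.43, a 3.62-fold higher level. This is the value that chose the gene, so no test of it is given.

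Etv4 gave the lowest count of any member in any library, and its depth sets how well each library is measured. It had 222, 251 and 183 counts in PCN replicates 4, 5 and 6, against 52, 76 and 50 in vehicle replicates 3, 5 and 6. The exact Poisson 95% interval of the lowest PCN count was 157.4 to 211.5. That of the highest vehicle count was 59.88 to 95.13, and that of the lowest vehicle count was 37.11 to 65.92. Such intervals cover counting error only and leave out the spread between libraries. By FPKM it reached 2.86 ± 0.424 after PCN and 0.811 ± 0.182 after vehicle (SD, n = 3 each). In GENCODE M21 no other annotated gene overlaps Etv4, and the annotation used for counting is not known.

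**Figure D1:**
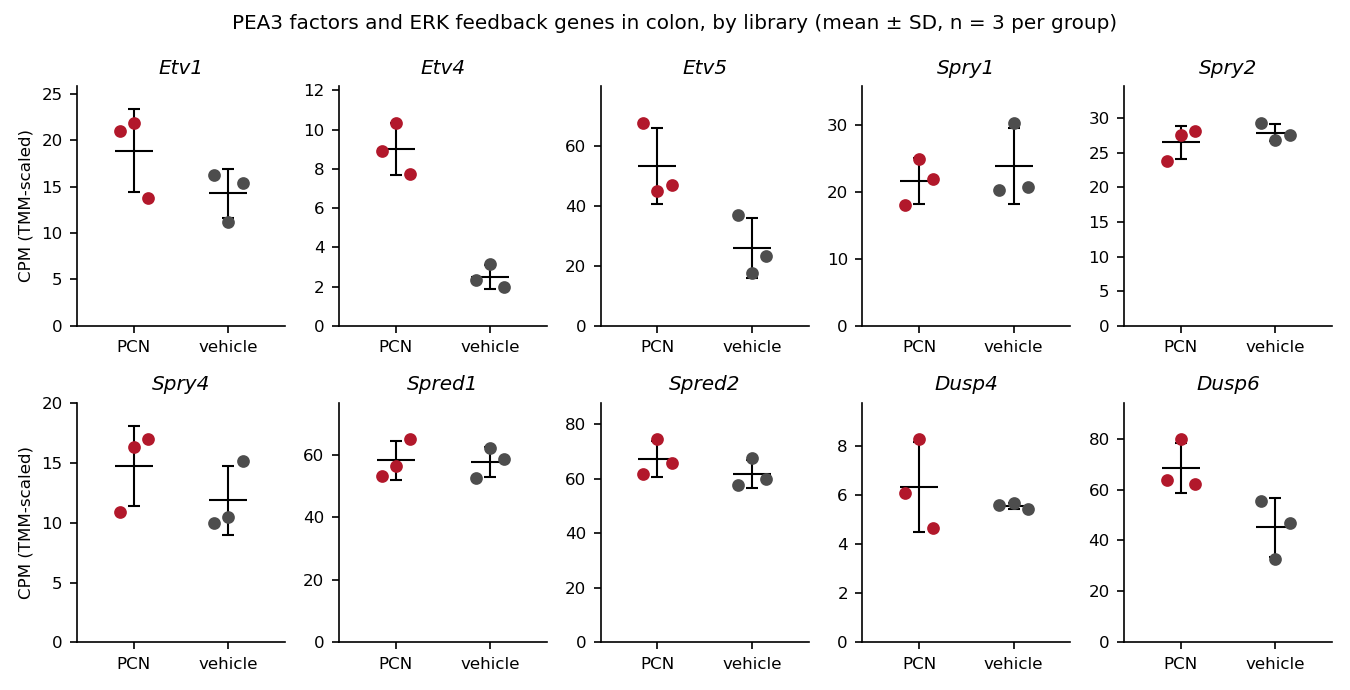
Level of each of the 10 genes in every library, in CPM after TMM scaling, with PCN (red, replicates 4, 5 and 6 from left to right) beside vehicle (grey, replicates 3, 5 and 6). Each point is 1 library and the bars give the mean and SD (n = 3 per group). Etv4, Etv5 and Dusp6 are the genes whose PCN points all lie above the vehicle points, and the other 7 genes overlap.

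Etv5, the most abundant PEA3 gene of these libraries, rose with PCN by DESeq2 and did not pass by edgeR. Etv5 (ENSMUSG00000013089, chromosome 16 of GRCm38, 22381309 to 22439719, minus strand) encodes a factor closely related to ETV4. It had 67.7, 44.7 and 47.0 CPM in PCN replicates 4, 5 and 6, against 36.9, 17.5 and 23.3 CPM in vehicle replicates 3, 5 and 6. The groups did not overlap, although PCN replicate 5 exceeded vehicle replicate 3 by less than vehicle replicate 3 exceeded the other vehicle libraries. The mean was 53.1 ± 12.6 CPM after PCN and 25.9 ± 9.97 CPM after vehicle (SD, n = 3 each). Its log2 fold change of 1.04 (SE 0.27, 95% interval 0.41 to 1.66), or 2.05-fold, had an adjusted p of 0.319 from edgeR and 0.0182 from DESeq2. The DESeq2 call was lost without PCN replicate 4 (adjusted p = 0.262), without vehicle replicate 5 (0.0846) and without vehicle replicate 6 (0.215), and over all alternatives the adjusted p ran from 3.35e-06 to 0.704.

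Etv1, the third PEA3 factor, overlapped between the groups. It had 21.01, 21.9 and 13.7 CPM in PCN replicates 4, 5 and 6, against 16.2, 11.2 and 15.4 CPM in vehicle replicates 3, 5 and 6. PCN replicate 6 lay inside the vehicle range, and the other PCN libraries lay above it. EdgeR put the log2 fold change at 0.40 (SE 0.22, 95% interval -0.10 to 0.91), with an adjusted p of 0.564, and DESeq2 gave an adjusted p of 0.542. The interval reaches from a slightly lower level after PCN to one close to that measured for Etv5.

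The RNA of the PEA3 factors together, summed as FPKM so that gene length is allowed for, was 17.0 ± 3.09 after PCN and 8.31 ± 2.49 after vehicle (SD, n = 3 each). Etv5 made up most of this sum in every library. Its share was 74.6 ± 5.30% after PCN and 75.9 ± 6.14% after vehicle (SD, n = 3 each). Etv4 made up 13.71, 21.01 and 16.66% in PCN replicates 4, 5 and 6, against 6.939, 16.51 and 8.451% in vehicle replicates 3, 5 and 6. Its shares therefore overlapped between the groups, and vehicle replicate 5 had the lowest Etv5 level beside the highest Etv4 level of the vehicle libraries. Etv1 made up 8.26 ± 1.84% after PCN and 13.5 ± 2.21% after vehicle (SD, n = 3 each). These shares contain the Etv4 values that chose the set and are given without a test.

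Dusp6, the phosphatase that acts on ERK in the cytoplasm, was the feedback gene with the largest fold change. Dusp6 (ENSMUSG00000019960, chromosome 10 of GRCm38, 99263231 to 99267489, plus strand) had 63.6, 79.8 and 62.0 CPM in PCN replicates 4, 5 and 6, against 55.7, 32.7 and 46.9 CPM in vehicle replicates 3, 5 and 6. The groups did not overlap, with PCN replicate 6 and vehicle replicate 3 closest to each other. The mean was 68.5 ± 9.84 CPM after PCN and 45.1 ± 11.6 CPM after vehicle (SD, n = 3 each). Its log2 fold change of 0.60 (SE 0.19, 95% interval 0.16 to 1.04), or 1.52-fold, did not pass (adjusted p = 0.397 from edgeR and 0.138 from DESeq2). DESeq2 called it only without vehicle replicate 3 (adjusted p = 0.0150), the vehicle library with the highest Dusp6 level, and over all alternatives the adjusted p ran from 0.0150 to 0.737.

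Dusp4, which encodes the nuclear phosphatase of the same family, overlapped between the groups. It had 6.11, 8.30 and 4.66 CPM in PCN replicates 4, 5 and 6, against 5.59, 5.69 and 5.45 CPM in vehicle replicates 3, 5 and 6. The vehicle libraries lay close together, and the PCN libraries lay on both sides of them. EdgeR put the log2 fold change at 0.19 (SE 0.25, 95% interval -0.38 to 0.76), with an adjusted p of 0.821.

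The Sprouty genes, whose proteins block the signal between receptor and Raf, all overlapped between the groups, as did most genes tested. Spry4 had 10.9, 16.3 and 17.0 CPM in PCN replicates 4, 5 and 6, against 9.96, 10.5 and 15.2 CPM in vehicle replicates 3, 5 and 6. The groups differed by 0.31 in log2 units (SE 0.23, 95% interval -0.22 to 0.85), with an adjusted p of 0.670 from edgeR. Within each group the libraries spread about as widely as the groups differed, or more. Spry1 had 21.6 ± 3.46 CPM after PCN and 23.8 ± 5.64 CPM after vehicle (SD, n = 3 each), a log2 fold change of -0.14 with a 95% confidence interval of -0.59 to 0.30. Spry2 was the steadiest of the Sprouty genes, with 26.5 ± 2.40 CPM after PCN and 27.9 ± 1.29 CPM after vehicle (SD, n = 3 each). Its log2 fold change was -0.07, with a 95% confidence interval of -0.33 to 0.18. On the opposite strand Spry1 shares 710 bases with Gm42922, and Spry4 shares 71 bases with Gm27369 and 119 bases with Gm27804. The sources used here do not state whether counting used strand.

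The Spred genes, relatives of the Sprouty genes whose proteins bring the Ras inhibitor neurofibromin to the membrane, varied little between libraries. Spred1 had 53.3, 56.4 and 65.1 CPM in PCN replicates 4, 5 and 6, against 52.5, 62.2 and 58.6 CPM in vehicle replicates 3, 5 and 6, with a log2 fold change of 0.01. Its 95% confidence interval of -0.24 to 0.26 leaves out a change of the size measured for Dusp6. Spred2 had 61.8, 74.6 and 65.7 CPM in PCN replicates 4, 5 and 6, against 57.9, 67.7 and 59.9 CPM in vehicle replicates 3, 5 and 6. Its log2 fold change was 0.12, with a 95% confidence interval of -0.12 to 0.36. The 7 members that overlapped had adjusted p-values of 0.5641 to 0.9819 from edgeR and 0.5419 to 0.996 from DESeq2.

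**Figure D2:**
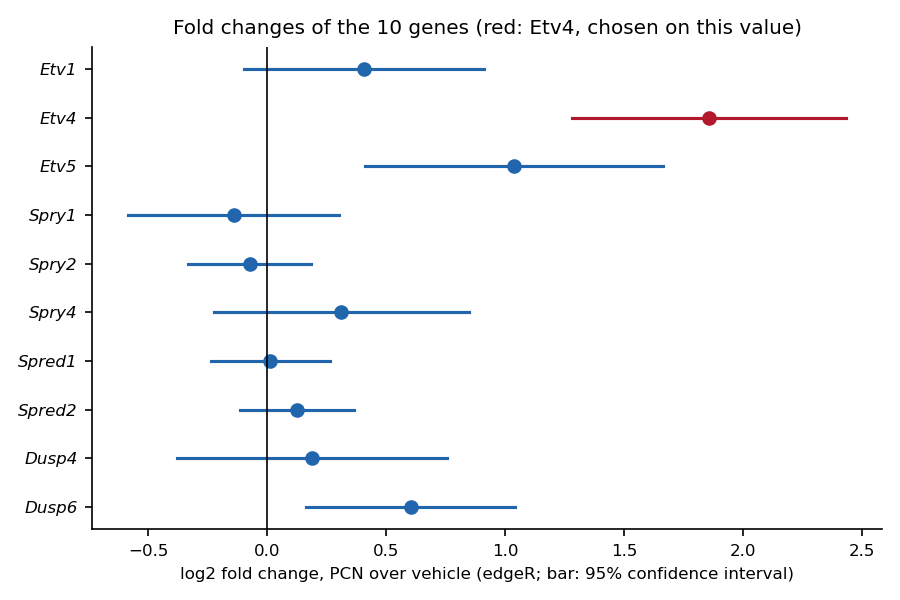
Log2 fold change of each of the 10 genes, PCN over vehicle, with its 95% confidence interval from edgeR (3 libraries per group). Each interval is for 1 gene and is not adjusted over genes. The interval of Etv4 (red, the gene that chose the set) is a description and no test. Those of Etv5 and Dusp6 lie right of 0, but neither gene passed after adjustment (adjusted p = 0.319 and 0.397 from edgeR). The intervals of the other 7 genes cross 0.

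Over the set, 8 of 10 genes had a positive log2 fold change and the median was 0.25, or 0.19 without Etv4, beside 0.01 for all genes tested. In 3 genes (Etv4, Etv5 and Dusp6) every PCN library lay above every vehicle library, as did 8.69% of all genes, and in 0 every PCN library lay below, as did 7.39% of all genes. Etv4 is 1 of these 3 by the choice of the set. EdgeR called 0 of the 9 genes other than Etv4. Before adjustment Etv5 and Dusp6 were higher and 0 of the 9 lower with p under 0.05, where 6.25% of all genes were higher and 3.73% were lower. Of the 9, DESeq2 called Etv5 higher. Of the 7 feedback genes, 6 overlapped between the groups, as did most genes tested. In the other, Dusp6, every PCN library lay above every vehicle library, as in 8.69% of all genes.

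By FPKM, averaged over the 6 libraries, Dusp6 was the most abundant of the 10 genes with 18.07, followed by Spred2 with 13.97 and Spry2 with 13.03. Etv5 with 9.569, Spred1 with 8.549 and Spry1 with 7.801 came next. Spry4 with 2.799, Dusp4 with 2.174, Etv4 with 1.833 and Etv1 with 1.243 FPKM were the least abundant. Between neighbours in this order the ranges over libraries overlapped, except between Spry1 (6.05 to 10.45 FPKM) and Spry4 (2.101 to 3.512 FPKM), which split the set into 6 more and 4 less abundant genes. Etv4 thus belongs to the less abundant ones also after PCN, where its 2.86 FPKM compare with 12.7 ± 2.97 FPKM for Etv5 (SD, n = 3).

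Differences between 2 genes within a library were compared between the groups for 3 pairs that leave out Etv4, since such a comparison does not depend on gene length. Each pair sets Etv5 or Dusp6, whose groups did not overlap, against a gene whose groups did. A larger difference after PCN thus follows in part from the choice of pairs. In log2 CPM, Dusp6 exceeded Spry2 by 1.36 ± 0.203 after PCN and by 0.660 ± 0.334 after vehicle (SD, n = 3 each). The PCN libraries all lay above the vehicle libraries in this difference, which gives a 2-sided exact permutation p of 0.1, the smallest that 3 libraries against 3 allow, so that no pair could reach 0.05. Etv5 exceeded Etv1 by 1.499 ± 0.407 after PCN and by 0.811 ± 0.329 after vehicle (SD, n = 3 each, exact permutation p = 0.2). Dusp6 exceeded Dusp4 by 3.46 ± 0.244 after PCN and by 2.98 ± 0.411 after vehicle (SD, n = 3 each, exact permutation p = 0.2). Adjusted over these 3 pairs, the p was 0.2 for each, which says nothing on whether they differ.

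The promoters of Etv5 and Dusp6, are shown because they are the members next to Etv4 in fold change. RefSeq promoters (GRCm38.p6, 250 bases before to 50 after a transcription start) were matched by symbol for 7 of the 10 genes, with 9 promoters in all. Etv4, Spry4 and Dusp4 had no entry. The 250 bases before the start are printed 5′ to 3′ on the strand of the gene, for Etv5 at chr16:22439571-22439820 (minus strand, the first of 2 starts) and for Dusp6 at chr10:99262981-99263230 (plus strand). Capitals mark a match to AGGAAG, the core that PEA3 factors bind, or to its reverse complement.
Etv5: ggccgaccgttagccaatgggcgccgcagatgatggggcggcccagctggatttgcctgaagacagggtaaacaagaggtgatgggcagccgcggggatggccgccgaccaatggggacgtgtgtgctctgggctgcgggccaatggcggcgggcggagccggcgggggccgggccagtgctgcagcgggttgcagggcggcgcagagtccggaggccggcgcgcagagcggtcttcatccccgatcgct
Dusp6: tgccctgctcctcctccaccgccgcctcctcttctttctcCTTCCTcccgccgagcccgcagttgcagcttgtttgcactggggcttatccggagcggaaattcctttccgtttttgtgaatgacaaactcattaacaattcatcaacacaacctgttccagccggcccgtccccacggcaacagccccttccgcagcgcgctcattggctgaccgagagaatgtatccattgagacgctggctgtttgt
The stretch before this Etv5 start held no match, and that of Dusp6 held 1 match, on the opposite strand at position -210 from the start. Across the 7 genes AGGAAG was also found before the first start of Etv1 (positions -8 and -4, overlapping), in Spred2 (positions -93 and -32) and after the second start of Etv5 (position 2). On both strands 35.4% of 32851 promoters of 300 bases hold AGGAAG, so a match is common. The core that nuclear receptors such as PXR bind, AGGTCA, was in 16.3% of all promoters and in that of Spry2 alone among these genes (position 22). The motifs of AP-1 (TGAGTCA, in 5.20% of promoters), CRE (TGACGTCA, 1.79%) and TCF/LEF (CTTTGAT, 3.73%) were in none of the 9. Only exact matches within the 300 bases were counted. The paper places the PXR element of B3galt5 farther upstream than these promoters reach, and such sequence was not searched here. Binding was not measured in these libraries.

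Library by library, Etv4 shared its order with some members after PCN and with none of Etv5, Dusp6 and Etv1 after vehicle. Log2 CPM was centred on each gene's mean over the 6 libraries. Among the PCN libraries it was highest in replicate 5 for Etv4 (1.13), Dusp6 (0.54), Dusp4 (0.49), Etv1 (0.44), Spred2 (0.21) and Spry1 (0.15). Spry1 was higher still in vehicle replicate 5 (0.44). Etv5 was highest in PCN replicate 4 (0.91). Among vehicle libraries Etv4 was highest in replicate 5 (-0.57), the library in which Etv5 (-1.04), Dusp6 (-0.74) and Etv1 (-0.52) were lowest. Etv5, Dusp6 and Etv1 were all highest of the vehicle libraries in replicate 3.

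**Figure D3:**
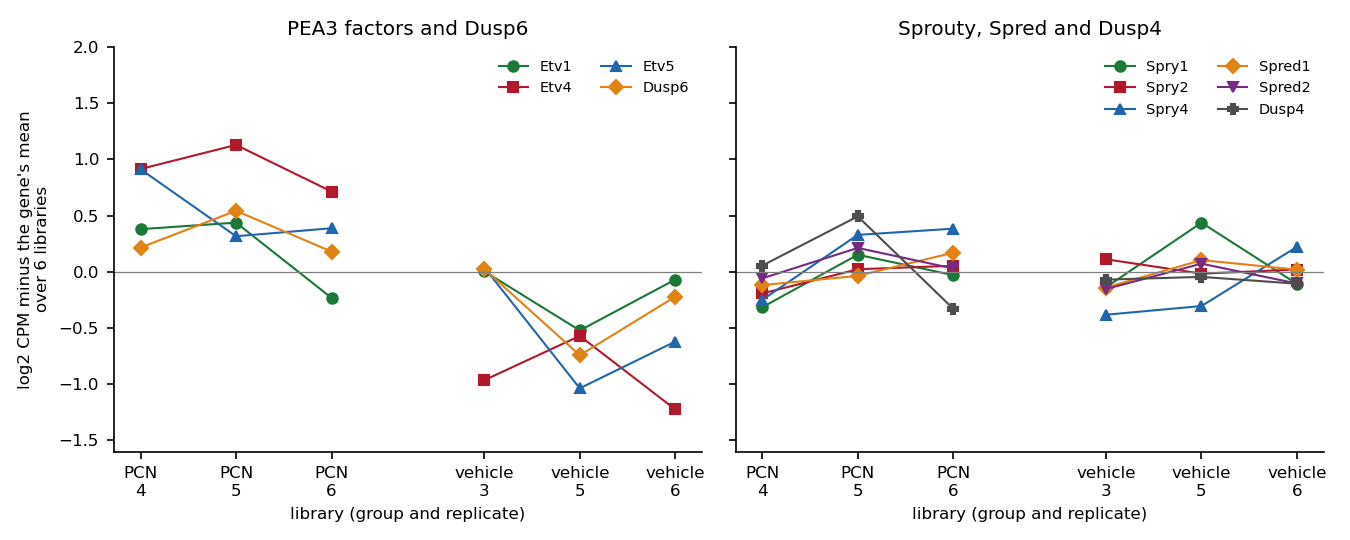
Log2 CPM of each gene minus its mean over the 6 libraries, for PCN replicates 4, 5 and 6 and vehicle replicates 3, 5 and 6 (lines join the points of one gene within a group and mark no order). In the left panel Etv4, Etv5 and Dusp6 lie higher in the PCN libraries, and Etv4 has its highest vehicle point in replicate 5, where Etv5, Dusp6 and Etv1 have their lowest. In the right panel the other 6 genes overlap between the groups, with single libraries of Dusp4 (0.49 in PCN replicate 5), Spry1 (0.44 in vehicle replicate 5) and Spry4 (0.38 in PCN replicate 6) farther from 0 than Dusp6 in PCN replicates 4 (0.22) and 6 (0.18).

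Markers of several cell types differed between the same libraries. Of the 16 lists with tested genes, 5 had sums whose PCN libraries all lay above vehicle, 0 had them below and 11 overlapped. Over all genes DESeq2 called 1.03% higher and 0.259% lower. The summed level of the 12 crypt stem cell and Wnt target genes was 1173, 1259 and 1244 CPM in PCN replicates 4, 5 and 6, against 1041, 863 and 937 CPM in vehicle replicates 3, 5 and 6, with 11 of 12 positive and 1 called higher by DESeq2. The sum did not overlap between the groups, and its highest vehicle library was replicate 3, as for Etv5, Dusp6 and Etv1. The 12 genes of DNA replication and mitosis summed to 585.8, 384.3 and 641.7 CPM after PCN, against 392.9, 373 and 280.8 CPM after vehicle, with 5 called higher by DESeq2. PCN replicate 5, which had the highest Etv4 level, lay within the vehicle range of this sum. Goblet cell genes (29061 to 41304 CPM after PCN, 22060 to 26616 CPM after vehicle, 2 of 6 called higher by DESeq2), fibroblast genes (1261 to 1701 CPM after PCN, 944 to 1184 CPM after vehicle, 1 of 6 called higher by DESeq2), tuft cell genes (54.3 to 70.6 CPM after PCN, 35.9 to 53.7 CPM after vehicle, 0 of 5 called) and B and plasma cell genes (628 to 1228 CPM after PCN, 219 to 496 CPM after vehicle, 1 of 4 called higher by DESeq2) also did not overlap. No defining marker of these lists was left out by the filter on low counts. The part of these cells in the levels of the 10 genes was not tested.

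Marker sums of the muscle layer overlapped between the groups. Smooth muscle genes summed to 4591, 2980 and 1341 CPM in PCN replicates 4, 5 and 6, against 2379, 1483 and 1526 CPM in vehicle replicates 3, 5 and 6. Genes of the interstitial cells of Cajal summed to 320.2, 246.7 and 194.4 CPM in the same PCN libraries, against 229.6, 153.7 and 203.3 CPM in the vehicle libraries. Etv5 was highest in PCN replicate 4 and in vehicle replicate 3, which also had the highest sums of both lists within their groups. In PCN replicate 6 the smooth muscle sum was the lowest of all 6 libraries and Etv5 had 47.0 CPM, against 36.9 CPM in vehicle replicate 3. The part of muscle in the Etv5 level was not tested. Macrophage genes (194 to 258 CPM after PCN, 122 to 221 CPM after vehicle) and posterior Hox genes, which mark position along the gut (17.2 to 65.8 CPM after PCN, 19.2 to 70.7 CPM after vehicle), overlapped. Surface colonocyte genes did so too (14769 to 17861 CPM after PCN, 14658 to 18652 CPM after vehicle, 1 of 8 called lower by DESeq2). The sums of enteroendocrine, enteric neuron and glia, endothelial and T cell genes likewise overlapped.

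The 5 genes outside the set with the smallest difference from Etv4 over the 6 libraries include the gene that the study follows. Likeness was measured as the root mean square difference of centred log2 CPM over the 6 libraries among 14901 genes with a mean of at least 1 CPM. It includes the difference between the groups that chose Etv4, so genes that differ between the groups to a like degree rank high by construction. The list is therefore a description. The closest were Syt8 (0.13), a synaptotagmin gene, B3galt5 (0.20), the galactosyltransferase gene of the study, Abcg5 (0.30), a sterol transporter gene, 4931406C07Rik (0.32) and Akr1b7 (0.32), an aldo-keto reductase gene. Syt8 had only 37 to 40 counts in the PCN libraries and 8 to 15 in the vehicle libraries, and DESeq2 gave it no adjusted p. B3galt5 had 1360 ± 71.9 CPM after PCN and 466 ± 93.0 CPM after vehicle (SD, n = 3 each). Its PCN replicates 4, 5 and 6 had 1283, 1371 and 1426 CPM, so it was highest in replicate 6, where Etv4 was lowest after PCN. Vehicle replicates 3, 5 and 6 had 450, 565 and 381 CPM of B3galt5, the same order as for Etv4. Of the members, Etv5 lay at 0.63 and Dusp6 at 0.72 from Etv4, and Spry1 was the farthest at 1.00.

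The rest of the pathway was read from 6 lists that hold 130 genes, of which 123 were tested. EdgeR called 0 of the 123 (before adjustment, p was under 0.05 for 10 that were higher and 6 that were lower, beside 6.25% and 3.73% of all genes), and DESeq2 called 1 higher and 0 lower. In 11 genes every PCN library lay above every vehicle library, beside 8.69% of all genes, and in 6 every PCN library lay below, beside 7.39%. These counts are near the background. The lists were drawn up with earlier results of these data known.

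Among growth factor ligands 24 of 28 were tested, 15 were positive and the median log2 fold change was 0.27. The median was 0.13 without PCN replicate 6, 0.17 without vehicle replicate 5 and 0.14 on log2(FPKM + 1). In 5 the PCN libraries lay above the vehicle libraries (8.69% of all genes) and in 1 below (7.39%), and 0 were called by DESeq2. Vegfa, which encodes a growth factor of blood vessels, had 102 ± 15.3 CPM after PCN and 74.1 ± 11.0 CPM after vehicle (SD, n = 3 each), with a log2 fold change of 0.47 and an adjusted p of 0.391 from edgeR, and DESeq2 called it without PCN replicate 6 alone (adjusted p = 0.0458, over all alternatives 0.0458 to 0.704). Igf1, insulin-like growth factor, had 18.8 CPM after PCN and 14.0 CPM after vehicle on average (log2 fold change 0.42, adjusted p = 0.484 from edgeR). Egf had 8.22 CPM after PCN and 12.8 CPM after vehicle (log2 fold change -0.63, adjusted p = 0.475 from edgeR), the opposite sign to most ligands. The summed level of the ligands was 562.4 to 594.5 CPM after PCN and 469.2 to 540.4 CPM after vehicle.

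Among receptor tyrosine kinases 16 of 17 were tested, 8 were positive and the median was -0.01. In 0 of the 16 every PCN library lay below vehicle (7.39% of all genes). Egfr, the receptor of EGF, was the 1 receptor gene whose PCN libraries all lay above vehicle (8.69% of all genes). It had 75.6, 69.0 and 64.3 CPM in PCN replicates 4, 5 and 6, against 55.0, 56.4 and 59.6 CPM in vehicle replicates 3, 5 and 6, with a log2 fold change of 0.29 and an adjusted p of 0.397 from edgeR and 0.290 from DESeq2. Erbb3, a receptor of the same family that needs a partner to signal, had 461 CPM after PCN and 601 CPM after vehicle (log2 fold change -0.38, adjusted p = 0.475 from edgeR), and its libraries overlapped. Met, the receptor of hepatocyte growth factor, also overlapped (log2 fold change 0.20, adjusted p = 0.589 from edgeR). The summed level of the receptors was 1311 to 1598 CPM after PCN and 1601 to 1725 CPM after vehicle.

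The adaptors and kinases between receptor and ERK had a median of -0.09, with 9 of 26 positive and 0 called by DESeq2. Leaving out vehicle replicate 3 gave a median of -0.15, and leaving out vehicle replicate 5 gave -0.014. Mapk3, which encodes ERK1, had 448 CPM after PCN and 387 CPM after vehicle (log2 fold change 0.21, adjusted p = 0.496 from edgeR), and its groups did not overlap. Gab1, a docking protein, was below vehicle in all PCN libraries with 45.0 CPM after PCN against 53.3 CPM after vehicle on average (log2 fold change -0.24, adjusted p = 0.441 from edgeR). Sos2, an exchange factor of Ras, had 66.0 CPM after PCN and 85.0 CPM after vehicle (log2 fold change -0.36, adjusted p = 0.496 from edgeR).

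Of 18 other inhibitors 17 were tested, with 9 positive, a median of 0.01 (-0.04 without PCN replicate 5) and 0 called by DESeq2. Dusp7, which encodes another cytoplasmic phosphatase of ERK, had 20.2 CPM after PCN and 15.1 CPM after vehicle (log2 fold change 0.42, adjusted p = 0.496 from edgeR), and its libraries overlapped. Lrig1, an inhibitor of EGF receptors that also marks crypt stem cells, lay above vehicle in all PCN libraries (141 CPM after PCN against 123 CPM after vehicle on average, log2 fold change 0.20, adjusted p = 0.506 from edgeR). Cblb, a ubiquitin ligase for activated receptors, lay below vehicle (31.4 CPM after PCN against 39.4 CPM after vehicle on average, log2 fold change -0.33, adjusted p = 0.471 from edgeR).

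Ccnd1 was the single gene of the 6 lists that DESeq2 called. It encodes cyclin D1, which drives entry into the cell cycle and is known as a target of both ERK and Wnt signalling. Ccnd1 had 102, 84.8 and 83.8 CPM in PCN replicates 4, 5 and 6, against 71.3, 38.2 and 46.5 CPM in vehicle replicates 3, 5 and 6. The groups did not overlap, and vehicle replicate 3 was the highest of its group, as for Etv5 and Dusp6. A log2 fold change of 0.79 (SE 0.21) had an adjusted p of 0.326 from edgeR and 0.0342 from DESeq2. With 1 library left out, the DESeq2 call was kept only without vehicle replicate 3 (adjusted p = 1.58e-08) and was lost without PCN replicate 4 (0.295), 5 (0.136) or 6 (0.0779) and without vehicle replicate 5 (0.121) or 6 (0.313). Over all alternatives the adjusted p ran from 1.58e-08 to 0.711.

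The other 19 ERK output genes tested did not pass. The list had 9 of 20 positive, counting Ccnd1, and a median of -0.02, which was -0.18 without PCN replicate 5. Its immediate early genes, which respond to ERK within minutes, pointed in different directions, with log2 fold changes of -0.96 for Egr1, 0.72 for Fos and 0.74 for Fosb (adjusted p = 0.496, 0.470 and 0.608 from edgeR). These 3 genes were chosen after their values were seen, and each overlapped between the groups.

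Of the other ETS factors, relatives of the PEA3 genes, 20 of 21 were tested, with 9 positive, a median of -0.02 (0.06 without PCN replicate 4) and 0 called by DESeq2. Elf3, an epithelial factor, had 633 CPM after PCN and 512 CPM after vehicle (log2 fold change 0.30, adjusted p = 0.399 from edgeR) and did not overlap. Spdef, a factor needed for goblet cells to mature, had 186, 161 and 182 CPM in PCN replicates 4, 5 and 6, against 162, 66.6 and 88.2 CPM in vehicle replicates 3, 5 and 6 (log2 fold change 0.74, adjusted p = 0.467 from edgeR). Its vehicle replicate 3 reached the PCN range, and without that library the log2 fold change was 1.19 and Spdef was called (adjusted p = 0.0415 from edgeR and 6.53e-10 from DESeq2, the range over all alternatives being 6.53e-10 to 0.782). Elf3 too was called by DESeq2 without it (adjusted p = 0.0225, range 0.0225 to 0.774). Ets1 had 34.8 CPM after PCN and 25.0 CPM after vehicle (log2 fold change 0.48, adjusted p = 0.470 from edgeR) and did not overlap. Elf3 and Ets1 were the 2 genes of this list whose PCN libraries all lay above vehicle (8.69% of all genes). In 2 others every PCN library lay below vehicle (7.39% of all genes). These were Elf4 and Erf, with log2 fold changes of -0.19 and -0.08 (adjusted p = 0.501 and 0.788 from edgeR).

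**Figure D4:**
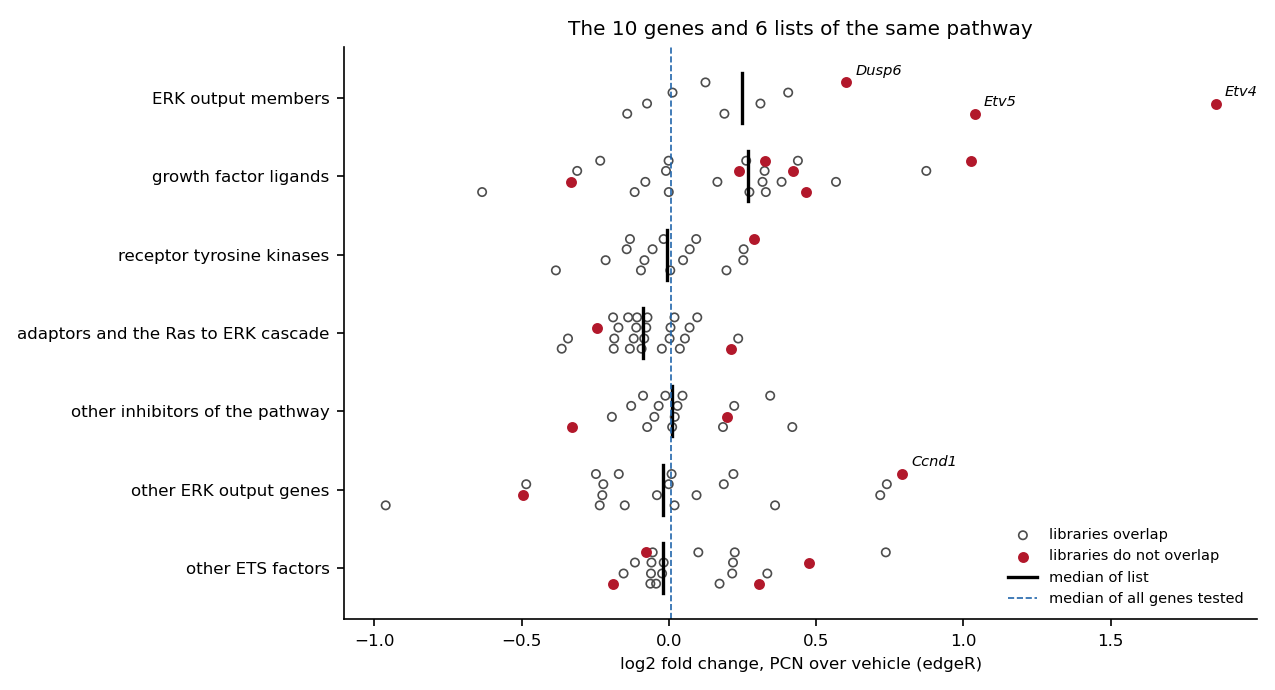
Log2 fold change, PCN over vehicle, of the 10 genes and of 6 lists of the same pathway, 1 point per gene tested. Filled red points are genes whose PCN and vehicle libraries do not overlap, black lines are list medians, and the dashed line is the median of all genes tested (0.01). Etv4, Etv5 and Dusp6 stand at 1.86, 1.04 and 0.60, and Ccnd1 stands at 0.79 among the other output genes.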

How the data were processed

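Whole-colon RNA of 3 PCN and 3 vehicle libraries was analysed. The authors deposited read counts per gene with FPKM values (counts relative to gene length and library size), and how the FPKM were computed is not stated in the sources used here. The study's methods name STAR and HTSeq with a pig assembly and a TruSeq kit, whereas the labels name the mouse build mm10 and a SMARTER kit, and the gene identifiers are those of mouse. Deposited log2 fold changes, p-values and marks of regulated genes come from the authors' own comparison and were not used. Deposited coordinates were the same as GENCODE M21 (GRCm38) for 441 of 22256 matched genes, and those of GENCODE were used.

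Counts were fitted with edgeR 4.0.16 in R 4.3.3 (TMM, filterByExpr at its default minimum count (10) and total (15), glmQLFit, glmQLFTest, Benjamini-Hochberg over 16586 genes, threshold 0.05), and the pipeline was tested on simulated data. Alternatives were DESeq2 1.42.0, upper quartile scaling, no filter, a replicate block, each library left out in turn, and limma 3.58.1 on log2(FPKM + 1) and log2(FPKM + 0.1). Leaving out libraries under DESeq2 was added after seeing the data. Depth of 21924026 to 25422856 counts per library gave 50 to 1933 counts per member and library.

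The members, lists and rules were chosen with earlier results of these data known. Named were the 10 members, list genes called by edgeR or DESeq2 or otherwise up to 3 per list with the smallest p, B3galt5, and the 5 genes most like Etv4.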

Additional observations from a re-analysis of the deposited data

How the results depend on the processing

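Calls over all genes depended on the tool: edgeR called 6, DESeq2 214, edgeR with upper quartile scaling 3, without the filter on low counts 27 and with the replicate block 74. Without 1 library edgeR called 0 to 24 (0 without PCN replicate 4, 5 or 6 or vehicle replicate 6, 4 without vehicle replicate 5 and 24 without vehicle replicate 3). DESeq2 called 133, 170 and 299 without PCN replicates 4, 5 and 6, and 406, 257 and 154 without vehicle replicates 3, 5 and 6. Of the 10 members edgeR called 0, DESeq2 2, edgeR without the filter 1 and with the replicate block 1 (Etv5, adjusted p = 0.0180). Replicate numbers 3 and 4 each occur in 1 group only, so the replicate block compares the groups within replicates 5 and 6 alone. Without 1 library edgeR called 0 and DESeq2 1 to 3 (3 without vehicle replicate 3, 2 without PCN replicate 5 or 6, otherwise 1). The DESeq2 counts and that without the filter include Etv4, whose rise chose the set. Among the rest, DESeq2 on all 6 libraries called Etv5 alone, and edgeR without the filter called none. With 1 library left out, DESeq2 called Etv5 only without PCN replicate 5 or 6 or vehicle replicate 3. It called Dusp6 only without vehicle replicate 3. Replicate numbers 5 and 6 are shared by both groups. Deviations of same-numbered libraries from their group means correlated at -0.152 and -0.093, and those of other pairs at -0.107 to 0.164. With 3 libraries per group these values cannot decide whether a shared number marks a pairing. The log2 fold change of Etv4 was 1.86, 1.09 on log2(FPKM + 1), where the pseudocount is large beside its level, and 1.69 to 2.06 without 1 library. Signs of members near 0 turned, with no call: Spry2 to 0.036 with the replicate block, Spred1 to -0.0028 by DESeq2, -0.0032 without the filter, and -0.031 and -0.034 by limma. Without 1 library Spry1 ranged from -0.256 to 0.0707 by edgeR and from -0.271 to 0.0615 by DESeq2, Spred1 from -0.0931 to 0.0722 and from -0.0931 to 0.0625 (-0.0696 without vehicle replicate 3), and Dusp4 from -0.0512 to 0.351 and from -0.0651 to 0.351. Of 540 values over 30 single genes and 18 settings, 493 kept direction and call, 15 lost and 19 gained a call, and 13 reversed. Spdef was also called with the replicate block (adjusted p = 0.00585). Of the medians of the 6 pathway lists 89 values stayed close and 19 moved, and only those of the ligands (above 0) and of the adaptors (below 0) kept their sign under all settings. With 3 libraries per group and counts of 50 to 76 in vehicle, differences of Etv4 between vehicle libraries are measured coarsely.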

Other observations

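Beyond the genes named by rule, 3 genes of the pathway lists were picked out after their values were seen, and none passed a test. Epgn and Areg, which encode ligands of the EGF receptor, had log2 fold changes of 1.03 and 0.87, the largest of the ligand list (adjusted p = 0.532 from edgeR for both, and no adjusted p from DESeq2 for Epgn). Every PCN library lay above every vehicle library for Epgn, as in 8.69% of all genes, and Areg overlapped between the groups. Bcl2l11, which encodes the death-promoting protein BIM that ERK is known to restrain, lay below vehicle in every PCN library, as did 7.39% of all genes. Its log2 fold change was -0.50 (edgeR gave an adjusted p of 0.489 and DESeq2 one of 0.346). The lowest log2 fold changes of the ligand list and of the other output genes were -0.63 for Egf and -0.96 for Egr1. Both of these genes overlapped between the groups.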
